A study of Mus musculus with 6 samples.

Results

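The matrix metalloproteinases (MMPs), the ADAMTS proteases and the tissue inhibitors of metalloproteinases (TIMPs) were examined in sorted medullary thymic epithelial cells (mTEC). Members were taken by name alone, as protein-coding genes whose symbol is Mmp, Adamts or Timp followed by a number, which gave 22 MMP, 19 ADAMTS and 4 TIMP genes, or 45 of the 52636 gene rows. All 45 passed the filter on low counts. The families were picked with results of the same comparison already known, Mmp9 among them, so the differences below are a description of these libraries and not independent evidence that the families differ.

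Bulk RNA sequencing covered 2 sorted populations, tuft-like and non-tuft-like mTEC, with 3 libraries each, from the thymi of C57BL/6 mice at 6 weeks of age. Both populations bound the lectin UEA, were low for MHCII and lacked CD80, Sca1 and CD63. Tuft-like cells carried both CD117 and CD66a at the surface and non-tuft-like cells carried neither. The study drew its gate within cells negative for CD45 and positive for EpCAM1, and the labels do not say whether the 3 libraries of a population came from separate animals, so p-values measure only the spread between these libraries. The comparison asks how transcription differs between the chemosensory tuft-like lineage of the medulla and the cells of the same gate with neither marker. The paper holds that the latter are likely a mixture of mTEC subpopulations, as their profile matched none of the known ones.

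MMPs are zinc-dependent proteases that cut collagens, gelatin, laminins and many cell surface proteins. Most are made as inactive precursors in which a cysteine of the propeptide occupies the catalytic zinc until it is displaced, and TIMPs block the active enzyme. ADAMTS proteases share the catalytic fold, carry thrombospondin repeats and cut proteoglycans, procollagens or von Willebrand factor. In epithelia these enzymes act on the basement membrane and on shed surface proteins.

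The letters that encode the catalytic zinc site show what the families share. The site holds 3 histidines that bind zinc, and the codons of these histidines are in capitals in the 33 bases printed for the members that the results turn on. Reading frames were the longest of each gene's protein-coding transcripts in GENCODE release M21, and positions count from 1 at the first base of the start codon.
Mmp9, coding bases 1201 to 1233: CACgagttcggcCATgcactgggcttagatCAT
Mmp2, coding bases 1207 to 1239: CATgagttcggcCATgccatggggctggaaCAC
Mmp7, coding bases 649 to 681: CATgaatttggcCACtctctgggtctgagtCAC
Mmp14, coding bases 715 to 747: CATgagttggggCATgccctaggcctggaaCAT
Adamts7, coding bases 1114 to 1146: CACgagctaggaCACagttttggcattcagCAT
Adamts13, coding bases 676 to 708: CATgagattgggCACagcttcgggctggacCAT
A site with these spacings was found in 22 of 22 MMP genes, in 12 of 18 ADAMTS genes searched and in 0 of 4 TIMP genes, which are inhibitors without a protease domain. The exact letters of the site searched were not found in Adamts1, Adamts4, Adamts8, Adamts9, Adamts15 and Adamts20, and Adamts19 was not searched. The cysteine switch is the propeptide motif with the zinc-binding cysteine. Searched as the exact residues PRCG, any residue and PD, it was found in 16 of 22 MMP genes and in 0 ADAMTS genes. Other forms of the motif were not searched, so a gene without a match may still hold such a cysteine. Predicted lengths ran from 267 residues for Mmp7, the smallest MMP, to 730 for Mmp9, from 845 to 1931 for the ADAMTS genes and from 205 to 224 for the TIMP genes.

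Gene counts summed to between 20097617 and 48369825 reads in a library. Levels are given as CPM (reads of a gene scaled to a common library total, with TMM factors), and positive log2 fold changes mean more RNA in tuft-like cells. Tests are those of edgeR's quasi-likelihood method, Benjamini-Hochberg adjusted over 32496 tested genes and called at a false discovery rate (FDR) below 0.05. The labels were checked against tuft cell markers, of which 8 of 8 were higher in tuft-like mTEC, with sums of 479.4 to 588.9 CPM in non-tuft-like and 8356 to 14345 CPM in tuft-like libraries. Of 10 markers of mature mTEC, which express Aire and MHCII, 7 were lower in tuft-like mTEC. Reads assigned to no gene made up 61.6% in tuft-like replicate 1 and 19.7% in tuft-like replicate 3, with the other 4 libraries between. In bulk samples, fewer cells of a type and less RNA per cell cannot be told apart.

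Tuft-like mTEC had less RNA of Mmp9 and Timp3 than non-tuft-like mTEC, and no member passed the test as higher. Of the 45 members, 2 passed the threshold as lower in the tuft-like cells, where 0.951% of all tested genes did, and 0 passed it with a higher level, where 1.16% did. In either direction 2.11% of tested genes passed. At an unadjusted p under 0.05, edgeR's quasi-likelihood test put 5 members lower (Mmp9, Timp3, Timp2, Adamts7 and Adamts9) and 0 higher. The share of all tested genes at this unadjusted cut is not given here or below, so such counts cannot be read as an excess. The likelihood ratio test and limma voom called 2 members lower and 0 higher. DESeq2 called 4 lower, adding Timp2 and Adamts7, and 0 higher. Over all tested genes, DESeq2 and the likelihood ratio test also called more than edgeR's quasi-likelihood test. Their member counts therefore cannot be set against the 0.951%. In 9 members every tuft-like library lay below every non-tuft-like library, where 8.85% of tested genes did so, and in 0 members every tuft-like library lay above, where 7.18% did. These 9 were Mmp7, Mmp9, Mmp28, Adamts7, Adamts9, Adamts10, Adamts13, Timp2 and Timp3.

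By sign alone 29 log2 fold changes were negative and 16 positive, with a median of -0.32 beside 0.02 for all tested genes. The MMP genes divided into 11 positive and 11 negative, with a median of -0.08. Among ADAMTS genes 15 of 19 were negative, with a median of -0.85, and among TIMP genes 3 of 4 were negative, with a median of -0.91. With RLE factors the split was the same in each family, and with library size alone it became 5 positive and 14 negative for ADAMTS and 0 positive and 4 negative for TIMP. The sign counts moved more with the library left out. Without tuft-like replicate 3, 8 ADAMTS genes were positive and 11 negative, and without tuft-like replicate 1 all 19 were negative. The ADAMTS medians were then -0.303 and -1.39, while the median of all tested genes also moved, to 0.145 and -0.195.

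**Figure D1:**
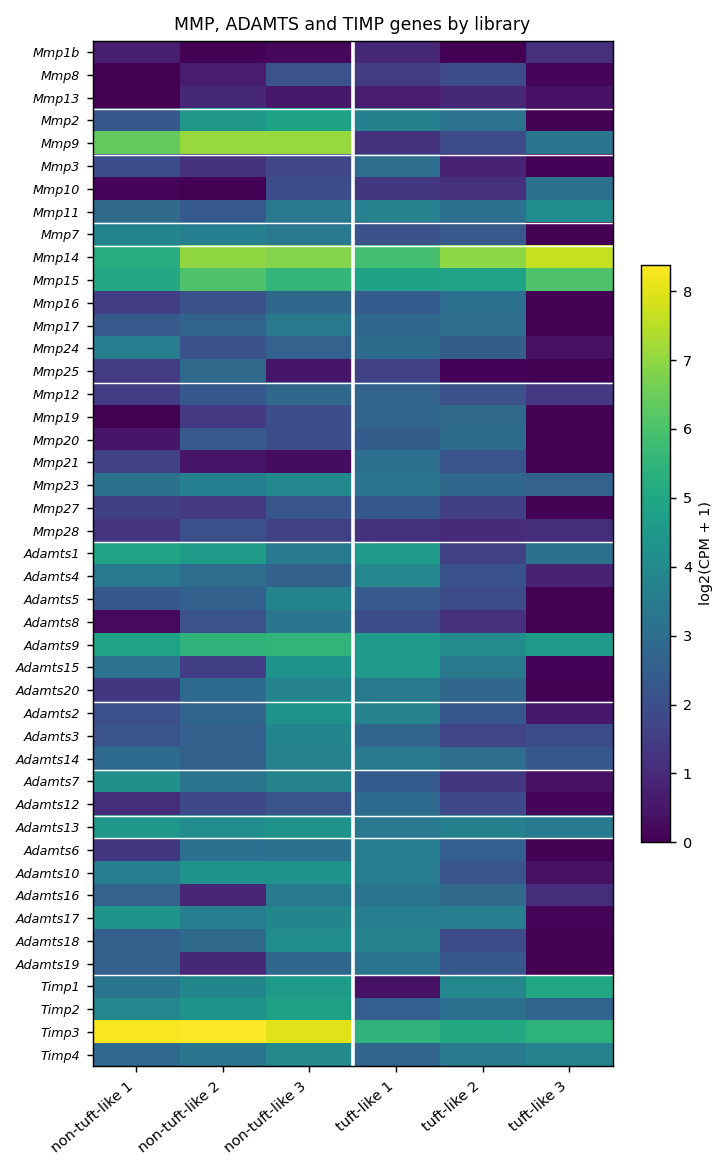
Level of each of the 45 members in each library, as log2(CPM + 1), with non-tuft-like libraries on the left and tuft-like libraries on the right and thin white lines between groups of related enzymes. Timp3, Mmp9, Mmp14 and Mmp15 are the brightest rows, Mmp9 and Timp3 are darker in all 3 tuft-like libraries, and many rows are darkest in tuft-like replicate 3.

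Mmp9 encodes gelatinase B, a secreted enzyme that cuts denatured collagen and type IV collagen of basement membranes. The gene (ENSMUSG00000017737, mm10 chromosome 2, 164940780 to 164955850, plus strand) had 81.2, 135.4 and 134.5 CPM in the non-tuft-like libraries, in replicate order here and below, and 1.36, 2.78 and 8.28 CPM in the tuft-like libraries. The non-tuft-like libraries were all high and the tuft-like libraries all low, without overlap, although the tuft-like values themselves spread widely. The raw reads behind them were 2572, 6361 and 4232 against 33, 95 and 300. Means were 117.0 ± 31.1 and 4.14 ± 3.66 CPM (SD, n = 3 libraries each), and the log2 fold change was -4.81 (approximate standard error, SE, 0.63, with FDR 0.00300 in edgeR). No annotated gene on the other strand overlaps its exons.

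Mmp2 encodes gelatinase A, the other protease of this pair, which is activated at the cell surface by Mmp14 together with Timp2. It had 3.98, 20.8 and 27.0 CPM in non-tuft-like and 12.0, 8.21 and 0.0276 CPM in tuft-like libraries. The libraries overlapped, and tuft-like replicate 3 held nearly no reads. Its log2 fold change was -1.36, with an SE of 1.29 and an FDR of 1 in edgeR.

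Timp3 encodes the inhibitor that binds to the extracellular matrix and blocks ADAM and ADAMTS proteases as well as MMPs. The gene (ENSMUSG00000020044, chromosome 10, 86300372 to 86349506, plus strand) had 314.1, 333.3 and 258.3 CPM in non-tuft-like libraries and 42.4, 33.4 and 42.3 CPM in tuft-like libraries. Both populations were even within themselves and far apart. Means were 301.9 ± 38.9 and 39.3 ± 5.17 CPM (SD, n = 3 libraries each), with a log2 fold change of -2.94 (SE 0.28, FDR 0.000689 in edgeR). Of its 8144 exonic bases, 1733 overlap Syn3 on the other strand. Syn3 itself had 451, 755 and 323 reads in non-tuft-like and 739, 1260 and 284 reads in tuft-like libraries, where Timp3 had 9956, 15654 and 8128 against 1025, 1141 and 1530. Without strand information, reads over the shared bases cannot be told apart.

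Timp2, which both inhibits MMPs and takes part in the activation of Mmp2, had 14.1, 19.0 and 26.4 CPM in non-tuft-like and 4.67, 7.34 and 5.58 CPM in tuft-like libraries. Every tuft-like library lay below, and the log2 fold change of -1.76 had an SE of 0.54, which edgeR did not call (FDR 0.195). DESeq2 called it (FDR 0.0152).

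Timp1, the inhibitor known to bind the precursor of Mmp9, had 8.58, 13.3 and 22.6 CPM in non-tuft-like and 0.331, 13.8 and 31.9 CPM in tuft-like libraries. The tuft-like libraries enclosed the non-tuft-like ones, with the lowest and the highest values both among them, and the log2 fold change was 0.05 (SE 1.05, FDR 1 in edgeR). Timp4 had 6.25, 8.71 and 14.3 CPM against 5.58, 10.3 and 12.1 CPM, a log2 fold change of -0.06 (SE 0.66, FDR 1 in edgeR).

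**Figure D2:**
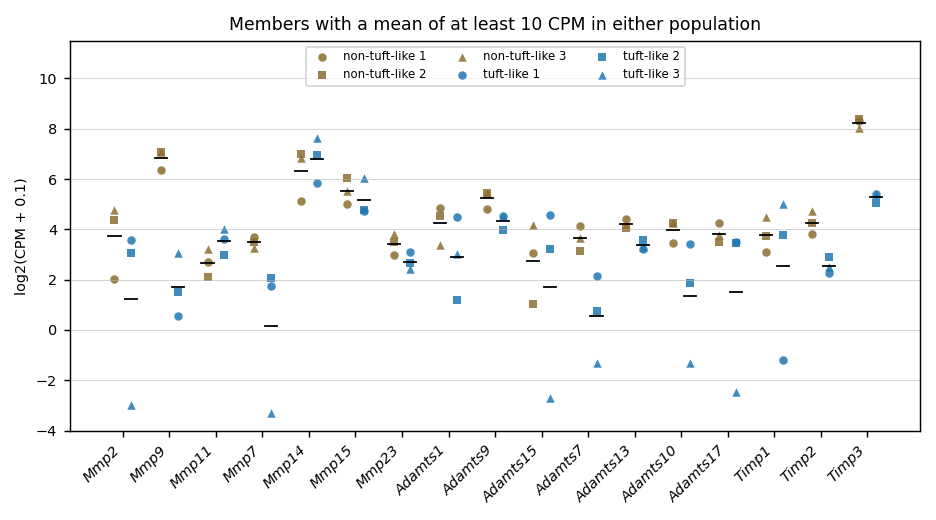
Level per library, as log2(CPM + 0.1), of the 17 members that average 10 CPM or more in either population, with brown for non-tuft-like and blue for tuft-like, a marker shape for each replicate number and black bars at the mean of the 3 log2 values. Mmp9 and Timp3 show a clear gap, while Mmp14, Mmp15 and Timp1 overlap.

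The membrane-type MMPs are anchored at the cell surface and cut matrix in its vicinity. Mmp14 (MT1-MMP) had 35.3, 126.1 and 113.2 CPM in non-tuft-like and 57.5, 123.2 and 197.6 CPM in tuft-like libraries. Its populations overlapped, with the lowest value of each in replicate 1, and the log2 fold change was 0.46 (SE 0.52, FDR 1 in edgeR). Mmp15 (MT2-MMP) had 32.2, 64.9 and 45.6 CPM against 26.7, 27.2 and 65.3 CPM, a log2 fold change of -0.26 (SE 0.43, FDR 1 in edgeR). The other 4 of this group, Mmp16, Mmp17, Mmp24 and Mmp25, had between 0 and 10.7 CPM in every library, and 0 of the 6 were called or reached an unadjusted p under 0.05 by edgeR, DESeq2, the likelihood ratio test or limma voom.

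Matrilysin, encoded by Mmp7, lacks the hemopexin domain of most MMPs and is made by glandular epithelia. It had 12.9, 11.2 and 9.57 CPM in non-tuft-like and 3.26, 4.03 and 0 CPM in tuft-like libraries. A count of 0 in tuft-like replicate 3 allows up to 0.0828 CPM (3 counts, counting error only). Every tuft-like library lay below, but the log2 fold change of -2.20 had an SE of 1.37 (FDR 0.917 in edgeR).

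Of the stromelysins, Mmp11, which is activated inside the cell by furin, had 6.47, 4.24 and 9.15 CPM in non-tuft-like and 12.1, 7.83 and 16.0 CPM in tuft-like libraries (log2 fold change 0.85, SE 0.66, FDR 1 in edgeR). Mmp3 and Mmp10 lay between 0 and 7.62 CPM. The collagenases, Mmp1b, Mmp8 and Mmp13, lay between 0 and 3.43 CPM. Mmp1b has a paralogue, Mmp1a, and how reads matching both were counted was not tested. Mmp23, a membrane protein without the usual cysteine switch, had 7.79, 11.2 and 14.0 CPM against 8.39, 6.17 and 5.19 CPM (log2 fold change -0.74, SE 0.65, FDR 1 in edgeR). The remaining MMP genes, Mmp12, Mmp19, Mmp20, Mmp21, Mmp27 and Mmp28, lay between 0 and 7.40 CPM.

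Of the 19 ADAMTS genes, 0 passed the threshold by edgeR's quasi-likelihood test, 2 were lower at an unadjusted p under 0.05, and DESeq2 called 1, the likelihood ratio test 0 and limma voom 0. Adamts7 and Adamts12 cut cartilage oligomeric matrix protein. Adamts7 had 17.5, 8.66 and 12.6 CPM in non-tuft-like and 4.38, 1.58 and 0.304 CPM in tuft-like libraries, without overlap. Its log2 fold change was -2.63 (SE 0.99), with an FDR of 0.361 by edgeR and 0.0497 by DESeq2, and 122 of its exonic bases overlap Tbc1d2b on the other strand.

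Adamts9, which cuts versican and is conserved back to nematodes, had 28.2, 43.0 and 43.7 CPM in non-tuft-like and 23.0, 15.6 and 22.9 CPM in tuft-like libraries. The libraries did not overlap and the tuft-like values were close to each other, with a log2 fold change of -0.90 (SE 0.36, FDR 0.420 in edgeR). Of its 15048 exonic bases, 1805 overlap genes on the other strand. Adamts13, the protease that trims von Willebrand factor, had 21.2, 16.4 and 18.2 CPM against 9.22, 11.9 and 9.78 CPM, again without overlap (log2 fold change -0.85, SE 0.47, FDR 0.801 in edgeR).

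Adamts10 and Adamts17 are tied to fibrillin microfibrils. Adamts10 had 11.01, 18.9 and 19.0 CPM in non-tuft-like and 10.7, 3.57 and 0.304 CPM in tuft-like libraries (log2 fold change -1.75, SE 0.996, FDR 0.825 in edgeR). Adamts17 had 19.0, 11.1 and 13.4 CPM against 11.1, 10.96 and 0.0828 CPM (log2 fold change -0.97, SE 1.13, FDR 1 in edgeR). In both genes the lowest value was that of tuft-like replicate 3, and in Adamts17 the other tuft-like libraries were near non-tuft-like replicate 2.

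Of the 7 ADAMTS genes grouped as proteoglycan-cleaving, Adamts1 had 28.8, 23.3 and 10.3 CPM in non-tuft-like and 22.6, 2.16 and 8.04 CPM in tuft-like libraries (log2 fold change -0.93, SE 0.77, FDR 1 in edgeR). Adamts15 had 8.20, 1.92 and 18.1 CPM against 23.8, 9.30 and 0.0552 CPM (log2 fold change 0.23, SE 1.34, FDR 1 in edgeR). Adamts15 thus had its highest and its lowest value in tuft-like libraries. The 3 procollagen N-propeptidases, Adamts2, Adamts3 and Adamts14, which remove the amino-terminal propeptide of fibrillar procollagens, lay between 0.469 and 18.8 CPM. The remaining ADAMTS genes, Adamts4, Adamts5, Adamts6, Adamts8, Adamts12, Adamts16, Adamts18, Adamts19 and Adamts20, lay between 0 and 16.1 CPM.

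**Figure D3:**
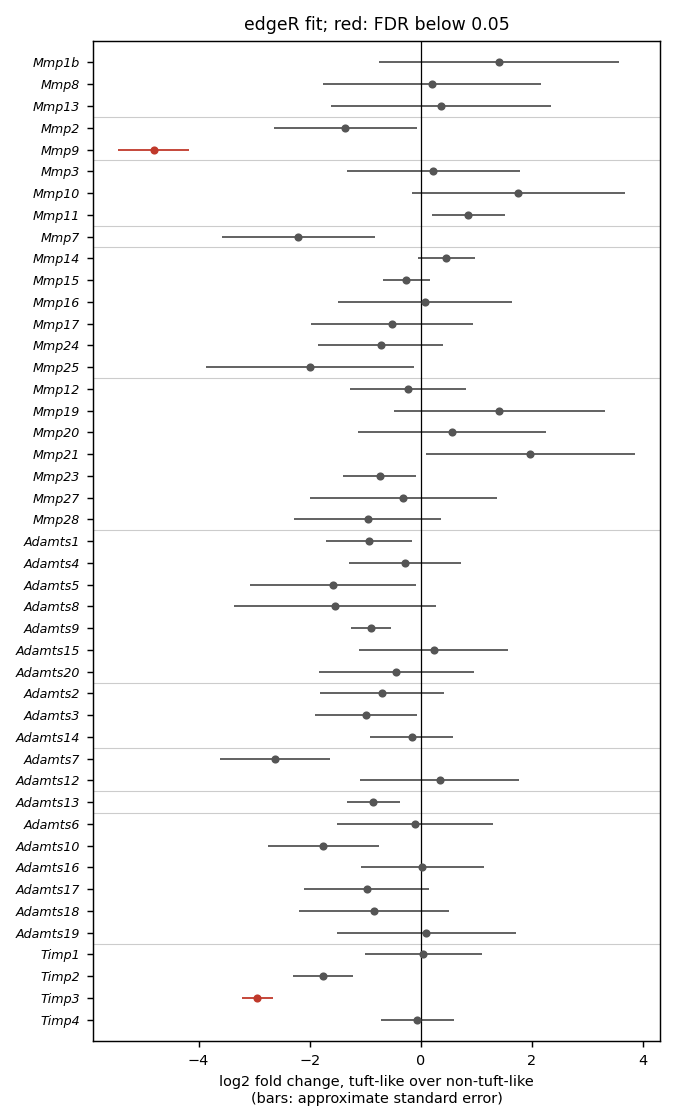
Log2 fold change of each member, tuft-like over non-tuft-like, with bars of 1 approximate standard error and Mmp9 and Timp3, the genes with an FDR below 0.05 in edgeR's quasi-likelihood test, in red. Both red points lie far to the left of 0 with short bars, and most grey bars reach or cross 0.

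Divided by exon length, levels can be compared between genes. In non-tuft-like mTEC the highest mean levels were those of Timp3 at 37.1 and Mmp9 at 33.1 CPM per exon kb, followed by Timp1 at 16.7, Mmp14 at 15.4, Mmp7 at 10.5 and Mmp15 at 8.81. Timp3 ranged from 31.7 to 40.9 and Mmp9 from 22.9 to 38.3 CPM per exon kb over the libraries, so by this length the 2 overlapped. In tuft-like mTEC Mmp14 led at 21.2, followed by Timp1 at 17.3, Mmp15 at 7.36, Timp3 at 4.83 and Mmp11 at 4.31 CPM per exon kb, and Mmp9 was at rank 20 of 45. Mmp14 and Timp1 could not be ordered there, since Timp1 ran from 0.372 to 35.9 and Mmp14 from 9.65 to 33.1 CPM per exon kb. With the longest transcript as the length, Timp3 and Mmp9 kept ranks 1 and 2 in non-tuft-like and Mmp14 and Timp1 ranks 1 and 2 in tuft-like mTEC. The non-tuft-like means were then 63.9 for Timp3 and 36.9 CPM per kb for Mmp9, so the gap between these 2 depended on the length used.

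As a share of the summed level per exon kb of all MMP genes, Mmp9 made up 36.3% to 37.2% in the non-tuft-like libraries and 0.804% to 3.80% in the tuft-like libraries. Mmp14 made up 9.58% to 20.6% and 20.1% to 53.8%. Among TIMP genes, Timp3 made up 47.8% to 72.9% in non-tuft-like and 11.6% to 67.4% in tuft-like libraries, and Timp1 18.3% to 38.3% and 4.82% to 80.5%. Of these 4 genes, Mmp9 was the one whose ranges did not overlap between the populations.

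**Figure D4:**
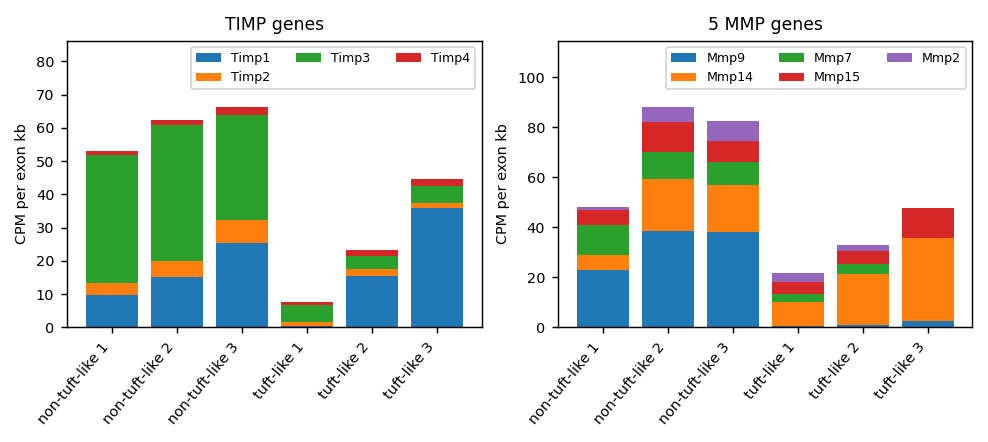
Stacked levels in CPM per exon kb for the 4 TIMP genes (left) and for 5 MMP genes, Mmp9, Mmp14, Mmp7, Mmp15 and Mmp2 (right), in each library. The Timp3 and Mmp9 segments are large in the 3 non-tuft-like libraries and small in the tuft-like libraries, where the Timp1 segment varies most.

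Many members were low enough that background reads matter. Olfactory receptor genes served as a gauge, and the 99th percentile of 1134 such genes lay between 1.24 and 2.75 CPM per exon kb. The gauge is rough in these cells, since the paper describes mTEC that express tissue-restricted antigens, and Aire averaged 292.0 CPM in non-tuft-like mTEC. Reads on olfactory receptor genes, and on members below this level, may therefore include such expression, and the part of it was not tested. Timp3, Mmp14, Mmp15 and Mmp23 exceeded this level in all 6 libraries. Another 19 members exceeded it in 1 to 5 libraries, and 22 members, 12 ADAMTS and 10 MMP, in 0. Mmp9 exceeded it in all 3 non-tuft-like libraries and in 1 tuft-like library. Of the 22 low members, 15 had their lowest value in tuft-like replicate 3. Their summed level was 58.6, 77.8 and 174.2 CPM in non-tuft-like and 148.9, 83.7 and 12.98 CPM in tuft-like libraries. Reads on olfactory receptor genes ran in nearly the same order, with 5.70, 9.34 and 13.5 counts per exon kb in non-tuft-like and 15.2, 12.4 and 2.54 in tuft-like libraries. The share of reads on no gene did so too, with 34.4%, 36.6% and 52.5% against 61.6%, 47.6% and 19.7%, and the part of this background in the low members was not tested. After background counts per exon kb were subtracted, an alternative added after the data were seen, Mmp9 and Timp3 were still called (log2 fold changes -5.38 and -3.003, edgeR FDR 0.0405 and 0.000179).

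**Figure D5:**
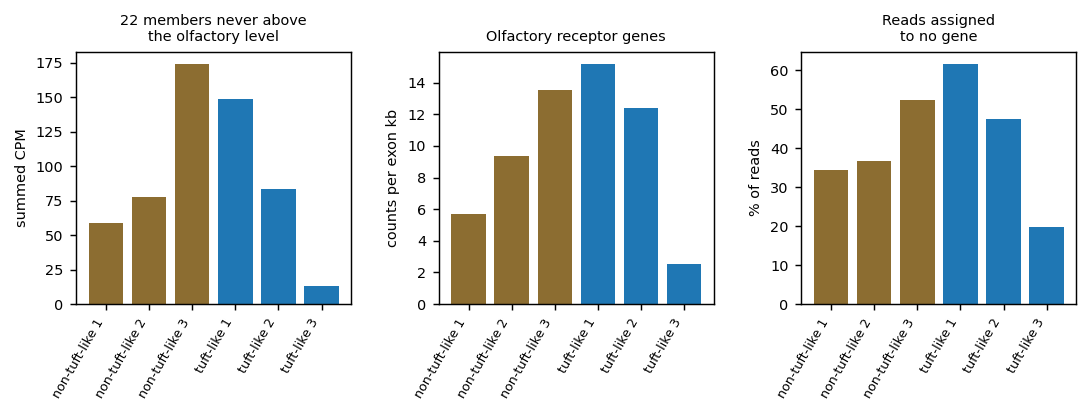
For each library, the summed CPM of the 22 members that never exceeded the olfactory level (left), olfactory receptor counts per exon kb (middle) and the percentage of reads assigned to no gene (right), with brown for non-tuft-like and blue for tuft-like. In all 3 panels the lowest bar is tuft-like replicate 3, and the 2 highest are replicate 1 of the tuft-like and replicate 3 of the non-tuft-like libraries.

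Mmp9 is also made by neutrophils, macrophages and osteoclasts, and Timp3 can be made by pericytes and other mural cells, so markers of these cells are given beside them. Of 10 neutrophil markers 0 were called by edgeR's quasi-likelihood test, 2 were lower at an unadjusted p under 0.05 (S100a8 and S100a9), and DESeq2 called 2, the likelihood ratio test 1 and limma voom 0. Of the 10 log2 fold changes 9 were negative, with a median of -1.33. S100a8 had 33.6, 14.4 and 28.7 CPM in non-tuft-like and 2.40, 12.7 and 2.24 CPM in tuft-like libraries. S100a9 had 31.1, 35.3 and 42.7 against 2.81, 10.7 and 13.8 CPM. For both genes every tuft-like library lay below every non-tuft-like library. Mpo had 18.02, 6.45 and 14.9 against 7.11, 2.28 and 0.0276 CPM, Ly6g 0, 10.2 and 0.763 against 0.909, 0.438 and 0 CPM, and Elane was at or below 1.55 CPM in every library. The exception in sign was Ltf, with 18.9, 89.2 and 9.31 against 34.6, 182.6 and 162.2 CPM. The summed level of the list was 115.1, 159.3 and 117.9 CPM in non-tuft-like and 56.0, 216.4 and 183.0 CPM in tuft-like libraries, so Ltf held most of the sum in each tuft-like library.

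Of 9 macrophage and dendritic cell markers 1 was lower, Cd68, and the sum was 221.7 to 351.6 against 131.9 to 192.8 CPM. Of their log2 fold changes 8 were negative, with a median of -0.62. Cd68 had 32.2, 37.1 and 48.7 against 3.60, 4.44 and 3.92 CPM, and Lyz2 had 301.5, 229.1 and 137.5 against 153.1, 112.6 and 170.2 CPM, with overlap. C1qa did not exceed 2.002 CPM in any library. Of 6 osteoclast markers 4 were tested and 0 called, with 1 at an unadjusted p under 0.05 in edgeR and 0 calls by DESeq2, the likelihood ratio test or limma voom, and their sum was 24.0 to 31.1 against 6.71 to 27.0 CPM. Acp5 had 20.04, 20.2 and 10.3 CPM in non-tuft-like and 2.52, 3.60 and 0 CPM in tuft-like libraries, without overlap (log2 fold change -3.04, FDR 0.518 in edgeR). Ocstamp, which was too low to be tested, did not exceed 1.53 CPM in any library.

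Of 6 pericyte and smooth muscle markers 1 was lower, Rgs5, by edgeR's quasi-likelihood test, 5 were lower at an unadjusted p under 0.05, and DESeq2 and the likelihood ratio test each called 4 and limma voom 3. All 6 log2 fold changes were negative, with a median of -2.26. Their sum was 260.5 to 419.1 CPM in non-tuft-like and 45.2 to 79.1 CPM in tuft-like libraries, so this list moved in the same direction as Timp3. Of 8 fibroblast markers 0 were called by any of the 4 tools and 0 reached an unadjusted p under 0.05 in edgeR, all 8 log2 fold changes were positive, and the sum was 48.5 to 77.8 against 38.8 to 199.0 CPM. Lum did not exceed 4.01 CPM in any library. Of 8 keratinocyte markers, which also mark cornified mTEC, 4 were lower, and their sum was 3659 to 5799 CPM in non-tuft-like and 158.4 to 1347 CPM in tuft-like libraries. The part of such cells in the Mmp9 and Timp3 differences was not tested.

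MMP genes are partly clustered on the chromosome. A group of 9 lies within 427072 bp of mm10 chromosome 9, from 7272514 to 7699585, in the order Mmp13, Mmp12, Mmp1b, Mmp3, Mmp10, Mmp8, Mmp27, Mmp20 and Mmp7. Of these 9 genes 0 were called by edgeR, DESeq2, the likelihood ratio test or limma voom, and 0 reached an unadjusted p under 0.05 in edgeR. By sign 6 were higher and 3 lower in tuft-like mTEC, and the median log2 fold change was 0.22. Mmp7 was the gene of the cluster that exceeded the olfactory level in all 3 non-tuft-like libraries. The rest had mean levels between 0.267 and 3.999 CPM in both populations.

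The cluster differed from the other members searched in its promoter letters, which are printed because the inducible MMPs are known targets of the transcription factor AP-1. The RefSeq promoter table used here (GRCm38.p6) holds windows for 31 of the 45 members, and the 250 bases before each start site were searched on both strands. The other 14 members, Mmp2 and Mmp9 among them, were not searched. The AP-1 letters TGANTCA were found in 7 of the 9 cluster genes and in 0 of the 22 other members with a window, where 6.75% of all 32851 promoters hold them. A gene with more than 1 window was counted if any of them held the letters. Mmp12 held them in the window from 7347124 to 7347373 but not in that at the annotated gene start, from 7344147 to 7344396, and Mmp7 in the window from 7691840 to 7692089 but not in that from 7692091 to 7692340. The 120 bases before the start site of 4 cluster genes follow, on the plus strand, with the AP-1 letters in capitals.
Mmp13, chr9:7272394-7272513: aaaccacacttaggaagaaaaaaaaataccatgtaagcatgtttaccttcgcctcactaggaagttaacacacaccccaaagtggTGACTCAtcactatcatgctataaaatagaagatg
Mmp3, chr9:7445702-7445821: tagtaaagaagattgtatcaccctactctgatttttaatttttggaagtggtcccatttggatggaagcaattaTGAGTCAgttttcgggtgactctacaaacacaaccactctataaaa
Mmp10, chr9:7502222-7502341: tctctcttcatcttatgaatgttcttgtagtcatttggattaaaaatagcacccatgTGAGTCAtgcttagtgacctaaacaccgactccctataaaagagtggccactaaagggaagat
Mmp7, chr9:7691970-7692089: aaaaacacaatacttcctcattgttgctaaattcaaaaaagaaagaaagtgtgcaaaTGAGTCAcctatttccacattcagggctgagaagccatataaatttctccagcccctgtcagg
The letters began 35 bases before the start site in Mmp13, 46 in Mmp3 and 63 in both Mmp10 and Mmp7. In Mmp12, counted from its later start site, Mmp1b and Mmp20 they began 44, 93 and 95 bases before it. The 4 printed genes had mean levels in non-tuft-like mTEC of 0.468, 2.25, 1.03 and 11.2 CPM, in the order printed. Of these, Mmp7 exceeded the olfactory level in 3 non-tuft-like libraries and Mmp13, Mmp3 and Mmp10 in 0. Among tuft-like libraries Mmp7 exceeded it in 2, Mmp3 and Mmp10 in 1 each and Mmp13 in 0. In non-tuft-like mTEC the same letters thus stood before a gene above that level and before genes not above it.

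The other members with a window differed in composition. The letters TATAAA were in 6 of the 9 cluster promoters and 2 of the 22 others (12.4% of all promoters), and the GC box GGGCGG in 0 of 9 and 16 of 22 (32.7% of all). The letters searched for NF-kB, GGG and CC with 5 bases of any kind between, were in 3 of 9 and 16 of 22 (45.8% of all). TATAAA and the GC box were added after the data were seen. Timp3, called lower, belongs to the second kind, and its 250 bases before the RefSeq start site are given with the GC box in capitals, read on the other strand.
Timp3, chr10:86300162-86300411, plus strand: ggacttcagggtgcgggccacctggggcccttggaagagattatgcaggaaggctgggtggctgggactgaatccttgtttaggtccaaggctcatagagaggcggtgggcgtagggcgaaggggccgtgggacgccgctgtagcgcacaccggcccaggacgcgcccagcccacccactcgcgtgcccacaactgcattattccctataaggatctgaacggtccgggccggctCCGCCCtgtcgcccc
This window holds 18 CpG dinucleotides, against a median of 6 over all promoters and 0 in the Mmp7 window whose AP-1 letters are shown. A match of letters is a description and no sign that a factor binds.

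Genes that activate, bind, clear or are cut by these proteases were taken from 7 lists with 65 genes in all. By edgeR's quasi-likelihood test 3 were lower in tuft-like mTEC, where 0.951% of all tested genes were, and 0 higher, where 1.16% were. The median log2 fold change of the 65 genes was -0.59, beside 0.02 for all tested genes. Another 2, Cd44 and Sdc4, reached an unadjusted p under 0.05 with higher levels, and DESeq2, the likelihood ratio test and limma voom each called both.

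The list of binding partners and clearance held 2 of the 3 genes called. Lrp1, the endocytic receptor that removes MMP and TIMP complexes from the cell surface, had 108.3, 92.1 and 121.0 CPM in non-tuft-like and 22.4, 12.4 and 8.78 CPM in tuft-like libraries (log2 fold change -2.89, SE 0.39, FDR 0.00324 in edgeR). Sdc1, a heparan sulfate proteoglycan, had 407.6, 370.6 and 525.6 CPM against 46.9, 81.6 and 128.7 CPM (log2 fold change -2.34, SE 0.39, FDR 0.0120 in edgeR), and lost its call without tuft-like replicate 2 (FDR 0.0715). Cd44, a hyaluronan receptor that docks Mmp9, had 99.2, 112.3 and 117.5 CPM against 187.7, 246.1 and 273.8 CPM, without overlap (log2 fold change 1.11, SE 0.27, FDR 0.0795 in edgeR). Sdc4 had 208.9, 181.5 and 190.6 CPM against 274.9, 417.7 and 541.4 CPM, also without overlap (log2 fold change 1.09, SE 0.32, FDR 0.156 in edgeR). Of 15 alternatives, 8 called Cd44 and 7 called Sdc4. The other 3 genes of the list, Bsg, Itgav and Lcn2, were not called. Bsg, an inducer of MMP production and the gene of the list with the highest level per exon kb averaged over both populations, had 392.1 ± 60.7 and 413.3 ± 168.4 CPM (SD, n = 3 libraries each).

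Among 15 substrates 1 was called, Col4a1, a chain of the type IV collagen that gelatinases cut. It had 303.2, 294.4 and 265.2 CPM in non-tuft-like and 148.3, 71.0 and 71.6 CPM in tuft-like libraries (log2 fold change -1.57, SE 0.35, FDR 0.0482 in edgeR). It was near the threshold and was called in 5 of 15 alternatives, with an FDR between 0.000548 and 0.281 over them. Leaving out any library except tuft-like replicate 1 ended the call. Col4a2, its partner chain, had 78.1, 89.1 and 87.8 CPM against 84.2, 28.0 and 13.4 CPM and was not called (edgeR FDR 0.755).

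The other lists held 0 genes called by edgeR's quasi-likelihood test. In 12 ADAM proteases 2 were lower at an unadjusted p under 0.05 and DESeq2, the likelihood ratio test and limma voom each called 1, which was Adam8 (344.5, 269.5 and 193.4 against 64.4, 95.7 and 146.8 CPM, edgeR FDR 0.102). In 9 other inhibitors 3 were lower at an unadjusted p under 0.05 and DESeq2 and the likelihood ratio test each called 1 and limma voom 0. The gene called was Serpinb5 (34.1, 37.6 and 66.6 against 2.23, 5.26 and 17.5 CPM, edgeR FDR 0.124). In 8 genes of the plasmin system and the proprotein convertases, 7 astacins and related metalloproteinases and 7 ADAMTS-like genes, at most 1 gene a list was at an unadjusted p under 0.05 by edgeR, and DESeq2, the likelihood ratio test and limma voom called 0. The genes of these 5 lists with the highest level per exon kb, averaged over both populations, were Adam10 at 44.7 and 40.7, Spock3 at 43.6 and 22.7, Pcsk7 at 14.7 and 9.02, Mep1a at 6.91 and 2.62 and Adamtsl4 at 2.57 and 2.73 CPM per exon kb, in non-tuft-like and tuft-like mTEC.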

How the data were processed

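Reads of the 6 mTEC libraries, 3 in each population, were trimmed (Trimmomatic 0.36), mapped to mm10 (STAR 2.7.3a) and counted per gene in HTSeq's intersection-nonempty mode by the authors, who deposited the raw counts. The strand setting and annotation release were not given in the sources used here. Cells went into trizol according to the paper, and the labels name a column kit. Identifiers were named from GENCODE M21 (99.72% of gene rows). Genes kept by filterByExpr (minimum count 10, minimum total 15) were fitted with edgeR 4.0.16 in R 4.3.3 (TMM, quasi-likelihood F-test, no covariates). An approximate standard error (SE) was taken from the fold change on the log2 scale and the root of F. Alternatives used DESeq2 1.42.0, limma 3.58.1 voom, the likelihood ratio test, other scalings and filters, a replicate block and omission of each library. The code was tested on simulated data. Members and lists were chosen with earlier results of these data known. Genes named with values are members called, all TIMPs and gelatinases, members averaging 10 CPM or more in either population, and, of the other lists, genes called and the gene highest per exon kb averaged over both populations. Further genes, Mmp3, Cd44, Sdc4, Adam8, Serpinb5 and Col4a2 among them, were named after their values were seen. Depths of 20097617 to 48369825 counts put the limit of a count of 0, taken as 3 counts, at 0.0639 to 0.124 CPM, for counting error only. With 3 against 3 libraries, an exact permutation test of 1 gene cannot give a p under 0.1. No pair of libraries shared equal counts in more than 1.36% of genes.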

Additional observations from a re-analysis of the deposited data

Results flagged for a closer look

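Outside the comparison itself, reads that the authors' counting assigned to no gene reached 61.6% in tuft-like replicate 1. Mmp1a, which matches the naming pattern but is annotated as a polymorphic pseudogene in GENCODE M21 and was therefore not a member, had 1, 0 and 5 reads in non-tuft-like and 8, 19 and 0 reads in tuft-like libraries, so its highest count was 19.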

How the results depend on the processing

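Mmp9 and Timp3 were called lower in 15 of 15 alternatives, with FDRs of at most 0.0405 and 0.00626, and without each library in turn their log2 fold changes lay between -5.84 and -4.40 and between -3.07 and -2.84. No member was called higher in any alternative. Members called lower numbered 2 in all alternatives except DESeq2, which called 4. Over 640 values of members under alternatives 2 crossed the threshold, and 21 of 45 members, all of them not called, changed sign at least once. Over all genes, 687 were called, against 1045 with library size only, 1904 with DESeq2, 1236 with the likelihood ratio test, 1127 without a filter, 1531 with a filter on means below 10 CPM, 1055 with background counts subtracted and 319 at an FDR of 0.01. Without each library in turn the number ranged from 376 (without tuft-like replicate 2) to 922, with 379 without non-tuft-like replicate 2. Of the 65 genes of the other lists, 0 were called higher, against 1 with RLE factors, 2 each with library size only, DESeq2, the likelihood ratio test, limma voom, the 10 CPM filter and background counts subtracted, and 0 to 2 without each library in turn. Those called lower numbered 3, against 5 with DESeq2, 5 with the likelihood ratio test, 6 without a filter, 5 with the 10 CPM filter, 1 at an FDR of 0.01 (Lrp1) and 1 to 5 without each library in turn. With the longest transcript as the length, Timp3 in non-tuft-like mTEC moved from 37.1 to 63.9 and Mmp9 from 33.1 to 36.9 CPM per kb. Mmp14 in tuft-like mTEC moved from 21.2 to 38.9 CPM per kb. Except where fewer genes or samples entered by construction, the cause was not tested.

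Libraries with the same replicate number did not deviate together (correlations of -0.0965, -0.0375 and -0.274), and were not treated as pairs. With the replicate number as a block 737 genes were called, members called lower stayed at 2, and Col4a1 lost its call. Depth limits levels below 0.0639 to 0.124 CPM, depending on the library.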

Other observations

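Epcam, which encodes the surface protein of the study's gate, had 229.5, 771.2 and 929.9 CPM in non-tuft-like and 248.0, 783.6 and 1041 CPM in tuft-like libraries, so that replicate 1 was the lowest in both populations. Mmp14 (35.3 and 57.5 CPM), Mmp15 (32.2 and 26.7 CPM) and Timp1 (8.58 and 0.331 CPM) also had their lowest value of each population in replicate 1. These genes were put side by side after their values were seen, and no test was made. Of all 45 members, 28 instead had their highest tuft-like value in replicate 1.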
